A study of Mus musculus with 20 samples.

Results

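The MYC network is the small family of transcription factors that meet on the shared partner MAX. Its 9 members here are Myc, Mycn, Mycl, Max, Mxd1, Mxd4, Mxi1, Mnt and Mga, taken by gene name from a count table of 29986 genes, in which 9 of 9 were found. The table holds RNA sequencing counts from tenocytes, the fibroblast-like cells of tendon, of tail tendon, and the mice were adult, wild type and of the C57Bl/6 strain. Every group was of this genotype and age and differed only in the time with recombinant insulin-like growth factor 1 (IGF1) at 100 ng/mL, which was 0, 1, 2, 6 or 24 h, with 4 libraries per time and 20 in all. The 0 h libraries had no IGF1. Untreated cultures kept for 1 to 24 h were not analysed here, so IGF1 and time in culture cannot be told apart in any comparison. Whether replicates were separate mice or separate cultures is not in the labels, so the p-values measure only the spread between these libraries, which may be technical.

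MYC proteins bind DNA as pairs with MAX at E-boxes, short motifs of which CACGTG is the preferred form, and recruit coactivators that raise the transcription of genes for ribosome production, nucleotide synthesis and metabolism. The MXD proteins (Mxd1, Mxd4 and Mxi1, which is also known as Mxd2) and MNT pair with the same MAX, bind the same motif and recruit SIN3 and histone deacetylase corepressors, so they oppose MYC. MGA is a giant MAX partner that scaffolds a Polycomb repressive complex named PRC1.6. Myc transcripts turn over quickly and are a known early response to growth factors in fibroblasts, whereas MXD genes are known for high expression in resting and differentiated cells.

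Promoter sequence is shown for the members whose transcripts moved together or that hold a motif bound by the network or by forkhead factors, which growth factor signalling through AKT restrains. The sequences are from RefSeq on GRCm38.p6, the assembly of the mm10 build. Promoter windows were at hand for 8 of the 9 members, all but Myc, and 10 windows in all, since Mxi1 has several starts. The Myc promoter was thus not searched. Each line below reads 5′ to 3′ on the strand of the gene, and capitals mark the E-box CACGTG or the forkhead motif GTAAACA, both searched on both strands. The Mxd4, Mnt and Mxd1 lines run from 250 bases before the RefSeq start of the gene to the last base before it (chr5:34187711-34187960, minus strand; chr11:74830674-74830923, plus strand; chr6:86669160-86669409, minus strand). The Max line runs from −150 to 10 bases past the RefSeq start (chr12:76962239-76962398, minus strand), and the Mxi1 line is a stretch of 30 bases that begins 250 bases before one of its starts (chr19:53329445-53329474, plus strand).
Mxd4: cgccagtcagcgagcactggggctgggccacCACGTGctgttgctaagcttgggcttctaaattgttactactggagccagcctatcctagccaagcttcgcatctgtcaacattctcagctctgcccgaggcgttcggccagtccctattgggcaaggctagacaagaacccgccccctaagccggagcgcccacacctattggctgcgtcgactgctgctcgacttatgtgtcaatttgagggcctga
Mnt: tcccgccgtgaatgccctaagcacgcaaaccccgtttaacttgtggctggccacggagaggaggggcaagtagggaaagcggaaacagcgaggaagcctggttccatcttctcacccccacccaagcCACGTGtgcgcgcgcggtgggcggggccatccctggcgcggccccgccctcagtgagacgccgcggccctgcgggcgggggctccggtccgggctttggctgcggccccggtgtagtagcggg
Mxd1: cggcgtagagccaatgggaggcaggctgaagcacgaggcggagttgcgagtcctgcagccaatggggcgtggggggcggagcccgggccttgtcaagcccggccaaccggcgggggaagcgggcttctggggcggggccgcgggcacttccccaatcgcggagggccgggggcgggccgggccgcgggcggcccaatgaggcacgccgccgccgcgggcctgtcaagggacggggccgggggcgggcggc
Max: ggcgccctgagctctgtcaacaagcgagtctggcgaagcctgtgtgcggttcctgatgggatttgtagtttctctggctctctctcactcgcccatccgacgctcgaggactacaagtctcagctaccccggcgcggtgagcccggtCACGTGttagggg
Mxi1: cccgtgctcgcgcggagaaGTAAACAaacc
The E-box lies at −219 in Mxd4, at −123 in Mnt and at −3 in Max, counted from the RefSeq start. Gene positions given further on are from GENCODE M21, whose start of Max lies 47 bases downstream of the RefSeq start at base 76962248, and whose starts of Mxd4, Mnt and Mxd1 lie within 10 bases of theirs in RefSeq. None of the other windows of the members holds CACGTG, and 7.15% of all 32851 promoter windows of 300 bases do. The forkhead motif was found only in 1 of the Mxi1 windows, at −231, against 3.65% of all windows. A match is a description of these letters, not of binding.

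Libraries held from 13734425 to 22687173 counts, with a mean at 24 h that was 0.734 of the 0 h mean. Levels are given as CPM (read counts relative to library size, which was scaled by the TMM method) and differences as log2 fold changes ± SE. A gene was called where the Benjamini-Hochberg adjusted p of edgeR's quasi-likelihood test over the 14420 genes tested was under 0.05, two-sided, and adjusted p below always means this value, with n = 4 per time. The summed level of 10 tenocyte markers was 62401 to 94222 CPM, and all 10 were tested. In 2 h libraries the 12 macrophage markers were higher, 12 of 12 called with a median log2 change of 1.13. Their summed level was 594, 1089, 407 and 494 CPM in 2 h replicates 1 to 4, against 269 to 338 at 0 h and 194 to 543 at the other times, and none of the 12 was at 0 in all libraries. The summed Schwann cell, endothelial and pericyte markers were at most 60.7, 48.1 and 22.5 CPM, with the highest of each in 2 h replicate 2. In 2 h replicate 4 the 1355 genes with at least 10000 exonic bases were low. Their median log2 deviation from the mean of the other libraries of that time was −0.43. The same median was −0.05 to 0.16 in each other library.

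The 9 genes were far from equal in level. Levels of different genes were compared per length, as TPM (counts per exonic length, scaled to the same total in every library). At 0 h the order of mean TPM was Mxd4 (104 ± 4.89, SD, n = 4), Max (91.1 ± 0.988), Myc (63.4 ± 4.0), Mnt (49.5 ± 3.79), Mga (25 ± 2.2), Mxi1 (15.6 ± 0.779), Mxd1 (5.58 ± 0.727), Mycl (0.150 ± 0.135) and Mycn (0.0975 ± 0.161). The libraries of each neighbouring pair in that order did not overlap, except Mycl and Mycn. The order changed with time. At 1 h Max (88.2 ± 4.17) lay above Mxd4 (78.7 ± 3.06), and Mnt and Mga overlapped. At 2 h Max (86.3 ± 1.33) and Myc (83.4 ± 3.68) overlapped at the top, Mxd4 lay below both at 56.7 ± 6.86, and Mga, Mnt and Mxi1 overlapped each other between 8.86 and 22.5 TPM. At 6 h Max was highest (104 ± 3.0) and Mxd4 (79.6 ± 4.72) and Myc (78.5 ± 2.81) overlapped. At 24 h the order of the 7 higher genes was again that of 0 h, with Mxd4 at 120.3 ± 3.15 TPM and Myc at 53.8 ± 4.09 TPM, and no neighbours among them overlapped.

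Mycn and Mycl fell under the filter on low counts, so 7 of the 9 members were tested. After 1 h of IGF1, 3 of these 7 were called, all of them lower (Mxd1, Mxd4 and Mnt). Of all genes tested at 1 h, 6.75% were called higher and 3.88% lower. At 2 h 5 of 7 were called, with Myc higher and Mxd1, Mxd4, Mxi1 and Mnt lower, against a background of 20.2% called higher and 17.5% lower. At 6 h 6 of 7 were called, Myc and Max higher and the same 4 repressors lower, against 20.6% higher and 19.6% lower. At 24 h 3 of 7 were called, all lower (Myc, Mxi1 and Mnt), against 12.7% higher and 13.2% lower. The median log2 change of the 7 tested members was −0.23 after 1 h, −0.41 after 2 h, −0.39 after 6 h and −0.12 after 24 h, where that of all genes was between −0.01 and 0.00. The 4 comparisons share the 0 h libraries. Over the whole time course 6 of 7 changed, all but Mga, against 63.7% of all genes, so a share near the background. In these bulk samples fewer cells of a type and less RNA per cell cannot be told apart. Leaving out 2 h replicates 1 and 2, which had the highest macrophage marker levels, gave 6 called members at 2 h in place of 5, and leaving out replicate 4 also gave 6. The gene added was Mga both times. The remaining 2 h libraries still had more macrophage marker RNA than those of 0 h, and its part in the 2 h values was not tested.

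**Figure D1:**
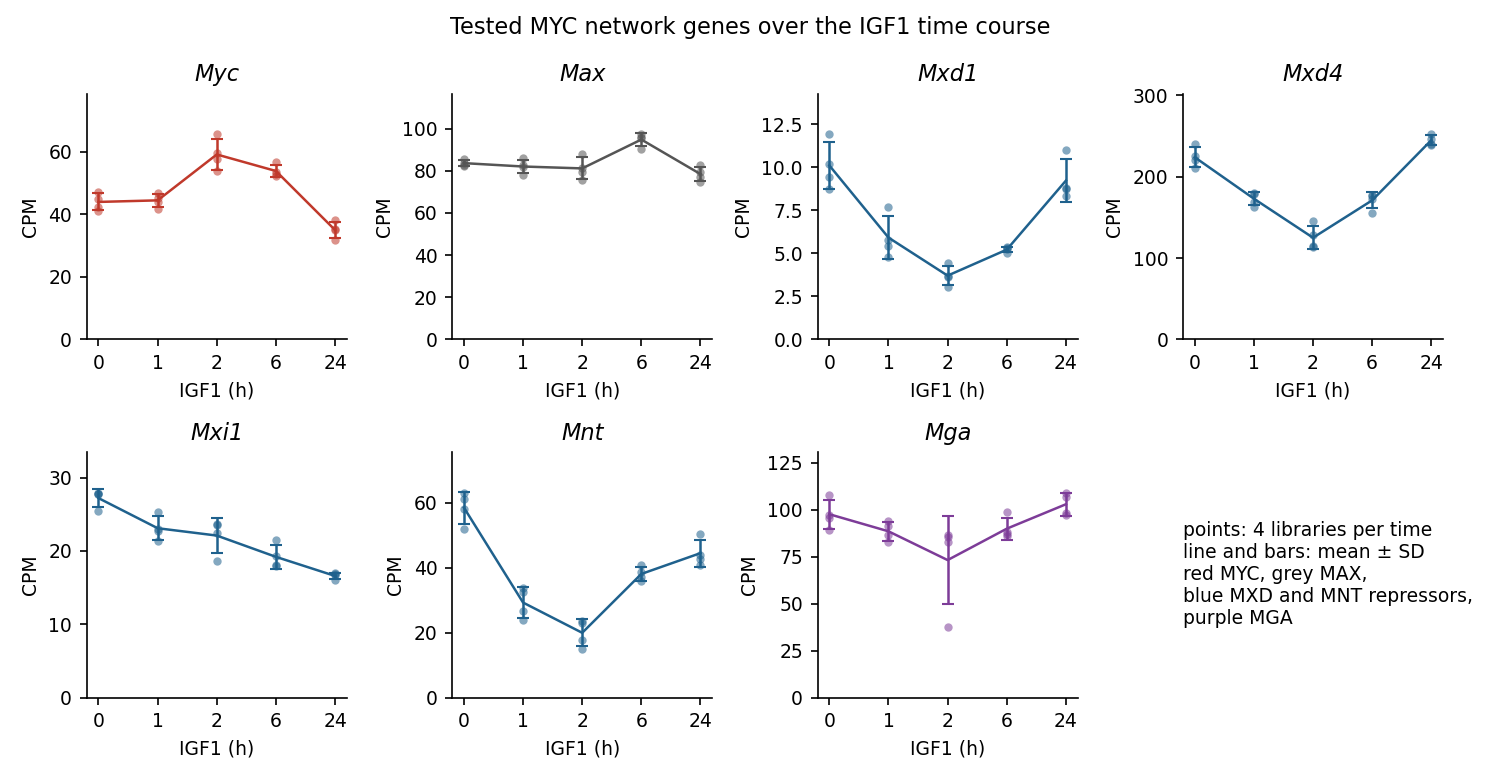
CPM of each of the 7 tested members (vertical axis, from 0) in every library by hours of IGF1 (horizontal axis, times evenly spaced); points are libraries, and the line and bars are the mean and SD of 4. Myc peaks at 2 h with 54.0 to 65.6 CPM, Mxd1, Mxd4 and Mnt have their lowest means there, and 1 Mga library at 2 h sits at 37.9 CPM.

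Myc, the founding member and the only abundant MYC paralog in these cells, rose at 2 h, stayed high at 6 h and was below its starting level at 24 h. The 0 h libraries held 42.5, 47.2, 41.1 and 45.0 CPM. The 1 h libraries held 47.0, 44.0, 41.8 and 45.3 CPM and overlapped those of 0 h (0.02 ± 0.071, adjusted p = 0.933). The 2 h libraries held 54.0, 57.6, 59.6 and 65.6 CPM. Each of these lay above every library of 0 h and 1 h, and the rise was 0.43 ± 0.070 on the log2 scale, a fold of 1.35 (adjusted p = 2.21e-05). At 6 h Myc stood at 52.2, 53.7, 56.7 and 53.1 CPM, again above all of 0 h (0.29 ± 0.070, adjusted p = 0.00132). At 24 h it stood at 31.8, 38.3, 35.2 and 34.9 CPM, below all of 0 h (−0.33 ± 0.072, adjusted p = 0.00106). Between successive times Myc rose from 1 h to 2 h by 0.41 (adjusted p = 1.62e-04), differed by −0.13 from 2 h to 6 h with overlapping libraries (adjusted p = 0.162), and fell by 0.62 from 6 h to 24 h (adjusted p = 1.03e-07). Pvt1, the long noncoding gene next to Myc on chromosome 15, was called at no time, with means between 16.5 and 18.7 CPM and an adjusted p of 0.547 over the time course. The Myc gene (ENSMUSG00000022346) spans chr15:61985391-61990374 on the plus strand of mm10.

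The paralogs Mycn and Mycl, which act in neural and other progenitors and in dendritic and lung endocrine cells, were close to the detection limit. Mycn had 1, 0, 0 and 6 counts in the 4 libraries of 0 h, 3, 3, 8 and 3 at 1 h, and 2, 8, 7 and 5 at 2 h. It then had 1, 0, 1 and 0 counts at 6 h and no count in any library of 24 h. Summed over the libraries, that is 7, 17, 22, 2 and 0 counts, so Mycn was detected in every library of 1 h and 2 h and in few of the others. The level summed over the 2 h libraries was 0.292 CPM (exact Poisson 95% interval 0.183 to 0.442), and the absence at 24 h allows up to 0.0605 CPM. Such intervals cover counting error only. Mean CPM of Mycn was 0.297 ± 0.145 at 2 h against 0.0826 ± 0.136 at 0 h (exact permutation test, two-sided p = 0.0571, adjusted p = 0.457 over 8 tests, where 0.0286 is the smallest p that 4 against 4 can give). Of the 8 such exact permutation tests of Mycn and Mycl none had a p under 0.05 before adjustment. Adjusted over 8 tests, a lone comparison at the smallest p could not fall under 0.05, so the adjusted p alone cannot decide. In an edgeR quasi-likelihood fit without the count filter the adjusted p of Mycn against 0 h was 0.248 at 2 h and 0.107 at 24 h. The same fit called 6 members from 2 h to 6 h and 8 over the whole time course. Only 7 members passed the filter, so these 8 include Mycn, Mycl or both. The 6 from 2 h to 6 h were Max, Mxd1, Mxd4, Mnt, Mga and either Mycn or Mycl. Between these times Mycn went from 22 to 2 summed counts and Mycl from 12 to 13. Mycn had at least 0.0957 CPM in every 2 h library and at most 0.0538 CPM in those of 6 h. This step was not among the 8 permutation tests. Mycl summed to 12, 21, 12, 13 and 17 counts over the 5 times, with 0 counts in 1 library of 0 h and 1 of 1 h, and its libraries overlapped between all times. Mycn lies at chr12:12936093-12941914 (minus strand) and Mycl at chr4:122995652-123002485 (plus strand) of mm10.

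**Figure D2:**
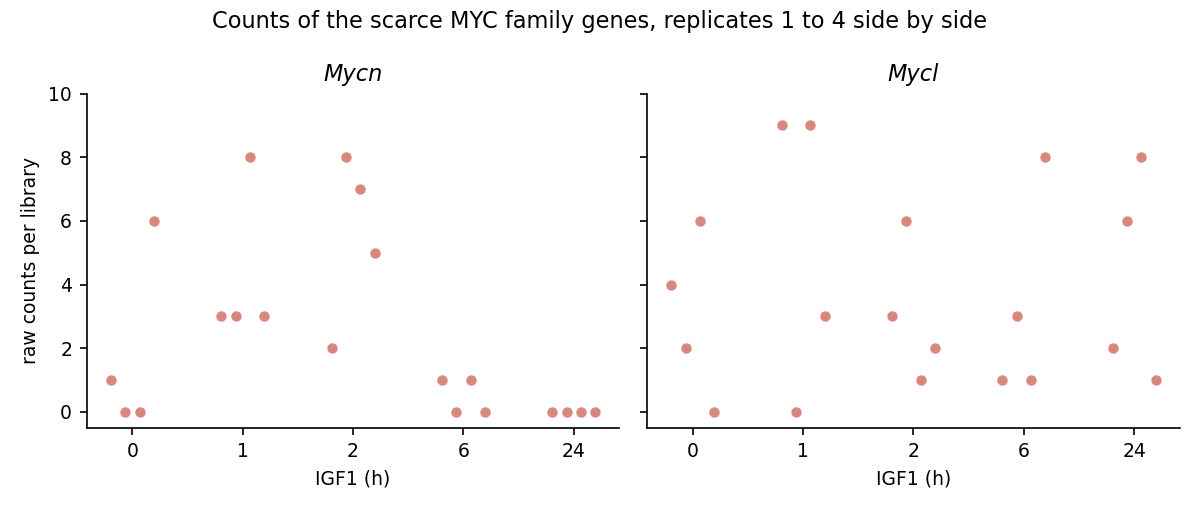
Raw counts of Mycn and Mycl (vertical axis, from 0) in each of the 20 libraries by hours of IGF1 (horizontal axis, times evenly spaced); each point is 1 library, with replicates 1 to 4 from left to right. Mycn reaches 8 counts at 1 h and at 2 h and has 0 in all 4 libraries of 24 h, while Mycl has no such pattern.

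Max, the shared partner of the network, had the smallest changes of the 6 members called over the time course. It stood at 83.9, 82.5, 82.2 and 85.6 CPM at 0 h and at 96.1, 97.2, 95.7 and 90.2 CPM at 6 h. All 4 libraries of 6 h lay above the 4 of 0 h, and the rise was 0.18 ± 0.057 (adjusted p = 0.012). The means at 1 h (82.0 ± 3.27), 2 h (81.1 ± 5.19) and 24 h (78.4 ± 3.45) overlapped 0 h, with changes of −0.03, −0.04 and −0.09 (adjusted p = 0.848, 0.581 and 0.261). Max rose from 2 h to 6 h by 0.23 (adjusted p = 0.0039) and fell by 0.27 from 6 h to 24 h (adjusted p = 4.39e-04). With no count filter its adjusted p at 6 h against 0 h was 0.0825, and its rise from 2 h was lost with 2 h replicates 1 and 2 left out (0.17, adjusted p = 0.0712). Max lies at chr12:76937269-76962201 on the minus strand of mm10.

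The largest changes of the network were in the repressors. Mnt, the most widely expressed of the MAX-binding repressors, dropped within 1 h and was lowest at 2 h. Its libraries held 61.1, 58.1, 51.8 and 63.0 CPM at 0 h, 33.9, 32.7, 24.0 and 26.6 CPM at 1 h, and 17.9, 23.7, 23.1 and 15.1 CPM at 2 h. No library of 1 h reached the lowest of 0 h, and none of 2 h reached the lowest of 1 h. The change was −1.0 ± 0.12 at 1 h, a fold of 0.50 (adjusted p = 1.36e-06), and −1.55 ± 0.12 at 2 h, a fold of 0.341 (adjusted p = 4.36e-10). Mnt then recovered in part. The 6 h libraries held 38.6, 37.2, 40.9 and 35.9 CPM (−0.62 ± 0.12, adjusted p = 1.38e-04), and the 24 h libraries held 43.8, 42.7, 50.4 and 40.9 CPM. The 24 h level was still below all of 0 h (−0.40 ± 0.12, adjusted p = 0.0128). The step from 2 h to 6 h was a rise of 0.93 (adjusted p = 3.14e-06), and that from 6 h to 24 h was 0.22 with overlapping libraries (adjusted p = 0.151). Mnt lies at chr11:74830920-74845725 on the plus strand, and its promoter E-box is the one shown above at −123.

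Mxd4, the most abundant repressor of the network, was lowest at 2 h as well and was not called against 0 h at 24 h. Its libraries held 240.1, 220.3, 211 and 225 CPM at 0 h and 169, 179, 180.3 and 163 CPM at 1 h (−0.37 ± 0.067, adjusted p = 2.62e-04). At 2 h they held 128, 114, 145 and 115 CPM, below all libraries of 1 h (−0.84 ± 0.068 against 0 h, adjusted p = 1.69e-10). At 6 h they held 173, 156, 178 and 176 CPM (−0.39 ± 0.067, adjusted p = 3.07e-05). At 24 h they held 240.1, 252, 247 and 239.6 CPM and only just reached into the range of 0 h (0.13 ± 0.067, adjusted p = 0.173). In TPM, which has no TMM scaling, the 24 h libraries (117 to 125) lay above all of 0 h (98.4 to 110.2). With TMM-scaled counts per kilobase the mean level at 24 h was 114 in place of 120.3. Of 28 alternative fits, 2 called Mxd4 higher at 24 h, with a lowest adjusted p of 0.0184. Mxd4 lies at chr5:34173883-34187720 on the minus strand. It shares 6.06% of its exonic bases with Gm42846 on the opposite strand, and strand use in counting is not given in the sources used here.

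Mxd1, the first MAD protein described and known from differentiating cells, was the least abundant repressor and was also lowest at 2 h. Its libraries held 8.76, 10.2, 9.45 and 11.9 CPM at 0 h and 5.76, 7.66, 5.41 and 4.81 CPM at 1 h (−0.77 ± 0.15, adjusted p = 5.72e-04). At 2 h they held 3.64, 4.43, 3.05 and 3.67 CPM (−1.44 ± 0.15, adjusted p = 2.52e-08). At 6 h they held 5.28, 5.35, 5.22 and 4.99 CPM (−0.95 ± 0.15, adjusted p = 8.37e-06). All libraries of 1 h, 2 h and 6 h were below the 4 of 0 h. At 24 h Mxd1 was back among the 0 h values, with 8.72, 8.81, 11.0 and 8.33 CPM (−0.12 ± 0.14, adjusted p = 0.58). Mxd1 lies at chr6:86647042-86669161 on the minus strand.

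Mxi1 took another course and was lower at 2, 6 and 24 h, with the lowest level last. Its libraries held 25.4, 27.9, 27.8 and 27.7 CPM at 0 h and 22.7, 25.3, 23.0 and 21.4 CPM at 1 h, a change of −0.23 ± 0.084 that missed the threshold (adjusted p = 0.0789) although the libraries did not overlap. At 2 h they held 23.7, 22.5, 18.6 and 23.5 CPM (−0.30 ± 0.084, adjusted p = 0.00618). At 6 h they held 18.0, 18.1, 19.3 and 21.5 CPM (−0.50 ± 0.085, adjusted p = 2.78e-05). The lowest values were those of 24 h, at 16.7, 16.8, 16 and 17.0 CPM (−0.71 ± 0.087, a fold of 0.611, adjusted p = 3.38e-07). No single step after 1 h passed the test, with changes of −0.07, −0.20 and −0.21 (adjusted p = 0.648, 0.0844 and 0.0639). Mxi1 lies at chr19:53310518-53375810 on the plus strand and shares 2.84% of its exonic bases with Gm10197 on the opposite strand.

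Mga, the scaffold of PRC1.6, did not pass the test in any of the 7 comparisons (in edgeR 1 of 7 had an unadjusted p under 0.05, and DESeq2 called 0). It stood at 89.5, 108, 97.4 and 95.7 CPM at 0 h, between 82.9 and 94.1 at 1 h, between 86.1 and 98.8 at 6 h and between 97.1 and 109 at 24 h. The 2 h libraries held 86.4, 85.7, 83.1 and 37.9 CPM. All 4 lay below 0 h, and replicate 4 stood far below the rest (−0.41 ± 0.17, adjusted p = 0.0698). That library is the one with low counts of long transcripts, and Mga has 15340 exonic bases, the most of the 9 members. The deviation of Mga in that library from the mean of the other 2 h libraries was −1.17 on the log2 scale. The part of transcript length in it was not tested. Without 2 h replicate 4 the change was −0.20 and was called (adjusted p = 0.0111). It was also called with all libraries and no count filter (−0.42, adjusted p = 1.16e-06). Mga lies at chr2:119897228-119969581 on the plus strand.

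**Figure D3:**
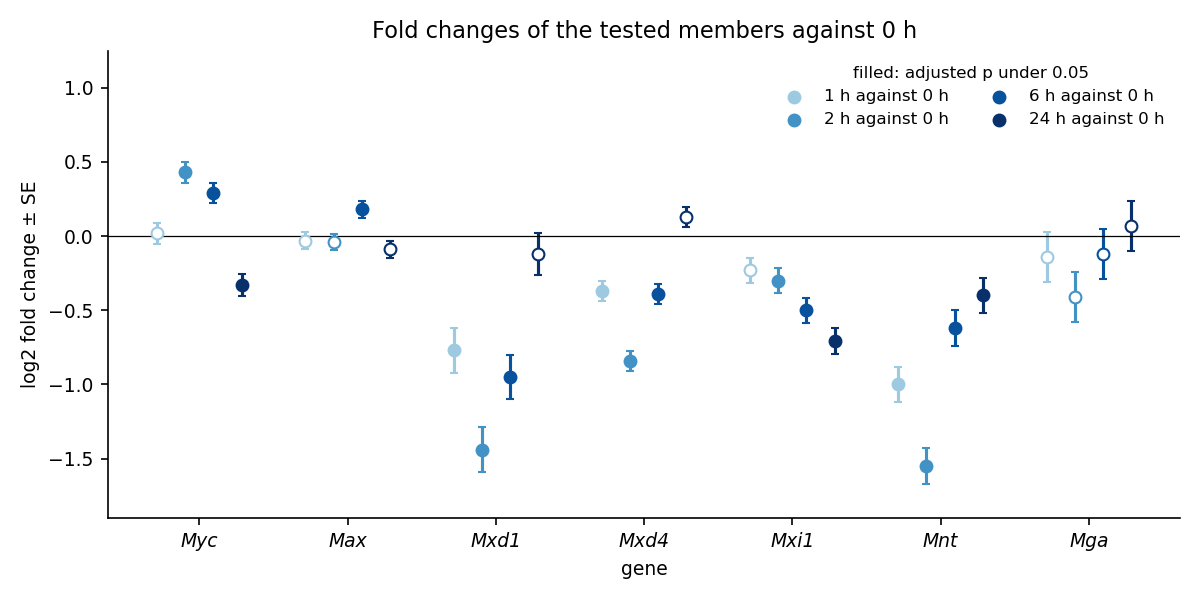
Log2 fold change against 0 h (vertical axis) of the 7 tested members (horizontal axis), with 1, 2, 6 and 24 h of IGF1 from left to right and from light to dark within each gene; bars are the SE and filled points have an adjusted p under 0.05. Mnt reaches −1.55 and Mxd1 −1.44 at 2 h, Myc is highest at 2 h with 0.43, and Mxi1 is lowest at 24 h with −0.71.

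Between successive times, 4 of the 7 tested members were called from 1 h to 2 h (Myc higher, and Mxd1, Mxd4 and Mnt lower), where 7.5% of all genes were higher and 8.84% lower. From 2 h to 6 h 4 were called, all higher (Max, Mxd1, Mxd4 and Mnt), where 13.6% of all genes were higher and 13.7% lower. From 6 h to 24 h 4 were called, Mxd1 and Mxd4 higher and Myc and Max lower, where 17.6% of all genes were higher and 18.2% lower. Mxd4 fell by 0.46 from 1 h to 2 h (adjusted p = 2.15e-05), rose by 0.45 to 6 h (adjusted p = 1.32e-05) and by 0.52 to 24 h (adjusted p = 6.60e-07). Mxd1 fell by 0.67 from 1 h to 2 h (adjusted p = 0.00383), rose by 0.49 to 6 h (adjusted p = 0.0216) and by 0.83 to 24 h (adjusted p = 8.19e-05). Mnt fell by 0.55 from 1 h to 2 h (adjusted p = 0.00307). In fits of only the 8 libraries compared, the falls of Mxd1 and Mnt from 1 h to 2 h had adjusted p values of 0.0617 and 0.0636. The rise of Mxd1 from 2 h to 6 h was 0.41 without 2 h replicate 3 (adjusted p = 0.0715).

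The balance of repressor to activator transcripts moved with these changes. The TPM of Mxd1, Mxd4, Mxi1 and Mnt summed to 174 ± 7.41 at 0 h (SD, n = 4). The sum was 119.5 ± 5.98 after 1 h, 87.8 ± 9.14 after 2 h, 126 ± 5.98 after 6 h and 176 ± 5.39 after 24 h. Divided by the TPM of Myc in the same library, this gave 2.97, 2.53, 2.74 and 2.77 at 0 h and 1.82, 2.03, 1.99 and 1.73 at 1 h. At 2 h the ratio was 1.15, 1.06, 1.15 and 0.861, so that repressor and Myc transcripts were near parity in every library. The 0.861 is that of replicate 4, the library with low counts of long transcripts. Myc has 2717 exonic bases and the summed repressors have 4627 to 8483 each. The part of transcript length in this ratio was not tested. At 6 h it was 1.67, 1.51, 1.6 and 1.65, and at 24 h it was 3.54, 3.03, 3.39 and 3.18. The 5 times did not overlap in this ratio, with 2 h lowest and 24 h highest. It is a description of values that were chosen with the single genes known, so no p is given. Mxd4 held 59.4% ± 1.36 of the repressor sum at 0 h and 68.4% ± 1.52 at 24 h, when Mnt and Mxi1 were still below their 0 h levels. These are transcripts, and protein was not measured.

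**Figure D4:**
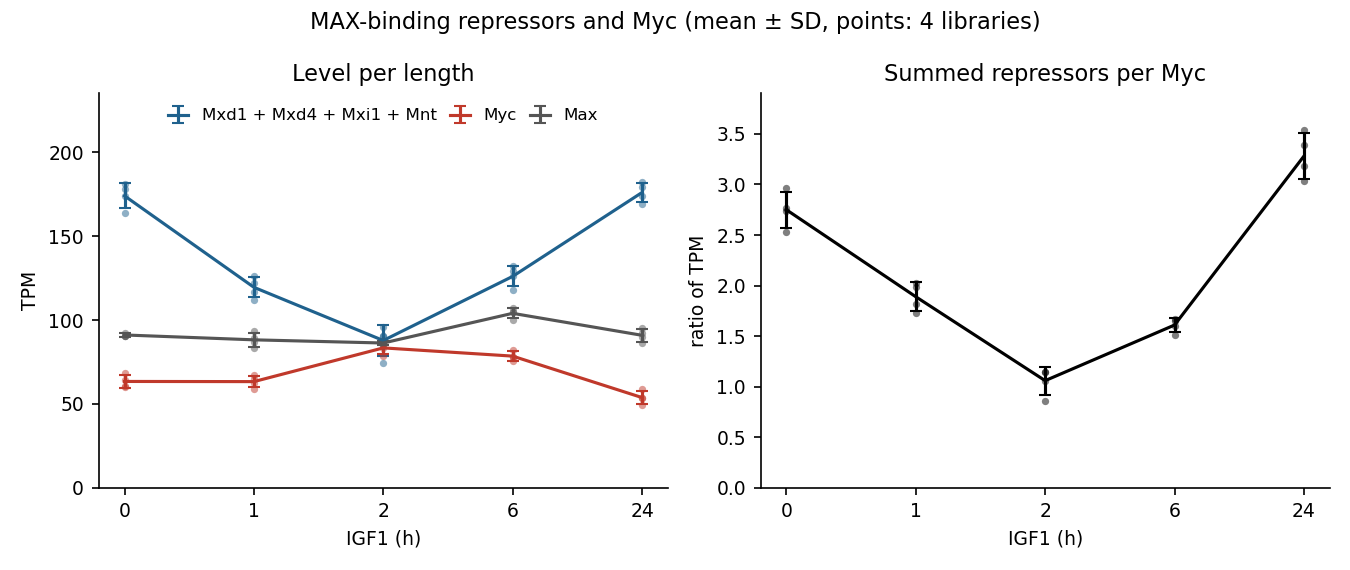
TPM (left, vertical axis from 0) of Myc, of Max and of Mxd1, Mxd4, Mxi1 and Mnt summed, and the ratio of that sum to Myc in each library (right, from 0), by hours of IGF1 (horizontal axes, times evenly spaced); points are libraries, and lines and bars are the mean and SD of 4. The ratio falls from 2.75 at 0 h to 1.06 at 2 h and stands at 3.28 at 24 h.

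Across the 20 libraries the repressors with the same course correlated with each other in log2 CPM, with a Pearson r of 0.88 for Mxd1 and Mxd4, 0.87 for Mxd1 and Mnt and 0.86 for Mxd4 and Mnt. Myc had a negative r to Mxd4 (−0.84), Mxd1 (−0.77), Mga (−0.62) and Mnt (−0.57). Mxi1 stood aside, with r of 0.10 to Mxd1, −0.17 to Mxd4 and 0.03 to Mnt. The points share the 5 times and the library scaling, so these are descriptions. Among 10360 other genes with a mean of at least 5 CPM, those most like Myc over the 20 libraries were Exosc10 (r = 0.928), Rrp7a (0.921) and Lsg1 (0.919), of which Exosc10 encodes a catalytic subunit of the nuclear RNA exosome and the others act in ribosome assembly. Mxd4 was most like Fam214a (0.963), the translation inhibitor Pdcd4 (0.961) and the lysosomal cystine carrier Ctns (0.955). Mnt was most like the transcription factor Klf15 (0.951), the amino acid carrier Slc38a2 (0.940) and Lpar4 (0.939). Mxd1 was most like Gpbp1l1 (0.957), Tspyl1 (0.947) and the cohesin subunit Rad21 (0.929). Max was most like 3 genes of the secretory pathway, Surf4 (0.895), Kdelr2 (0.886) and Creld2 (0.884). Mxi1 was most like Prss12 (0.925), Chodl (0.917) and AC130827.2 (0.910). Mga was most like Atm (0.954), Nynrin (0.953) and Dnajc13 (0.951). All correlations of Mga include 2 h replicate 4, where it stood at 37.9 CPM and the nearest 2 h library at 83.1. How far they rest on that library was not tested.

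A list of 30 genes known to be induced by MYC, all of them tested, was mostly higher at 2 h and 6 h. At 1 h 12 were higher and none lower, with a median log2 change of 0.18. At 2 h 23 were higher and 1 lower (median 0.48), and at 6 h 28 were higher and none lower (median 0.74). At 24 h 4 were higher and 4 lower (median 0.02). The share higher was 40%, 76.7%, 93.3% and 13.3% at the 4 times in turn, against 6.75%, 20.2%, 20.6% and 12.7% of all genes, so at 24 h it was near the background. For all genes the median was between −0.01 and 0.00 at each time. At 1 h, where the Myc libraries overlapped those of 0 h, Nop56, a core protein of box C/D small nucleolar ribonucleoproteins, was at 88.1 ± 3.34 CPM against 56.4 ± 1.56 at 0 h (0.64 ± 0.059, adjusted p = 6.76e-09). The cell cycle phosphatase Cdc25a rose by 0.63 ± 0.096 and the transferrin receptor Tfrc by 0.48 ± 0.11 (adjusted p = 2.78e-05 and 0.00428). At 2 h Nop56 had reached 117 ± 8.18 CPM (1.06 ± 0.059), and the lactate carrier Slc16a1 168 ± 23.4 CPM from 91.1 ± 7.84 (0.88 ± 0.076). The 1 gene that fell at 2 h was Tert, the telomerase reverse transcriptase (−0.75 ± 0.19, adjusted p = 0.00241). At 6 h the lactate dehydrogenase Ldha stood at 1445 ± 12.8 CPM against 592 ± 12.8 (1.29 ± 0.059, adjusted p = 2.09e-15), Tfrc was higher by 1.34 ± 0.11 and the ribosome assembly factor Rrp12 by 1.16 ± 0.099. The DNA repair gene Apex1 (0.15) and Tert (0.05) did not pass at 6 h. At 24 h Nme1, Ccnd2, Cdk4 and Pa2g4 were higher by 0.19 to 0.64, and Bop1, Mybbp1a, Gnl3 and Nop58 were lower, with values from −0.28 to −0.22. The share lower was 0%, 3.33%, 0% and 13.3% at the 4 times in turn, against 3.88%, 17.5%, 19.6% and 13.2% of all genes. At 24 h it was thus near the background. Without 2 h replicates 1 and 2 the count of higher genes at 2 h was 23, and without replicate 4 it was 22. Without replicate 4 the count at 1 h was 16 in place of 12, and the cause was not tested.

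**Figure D5:**
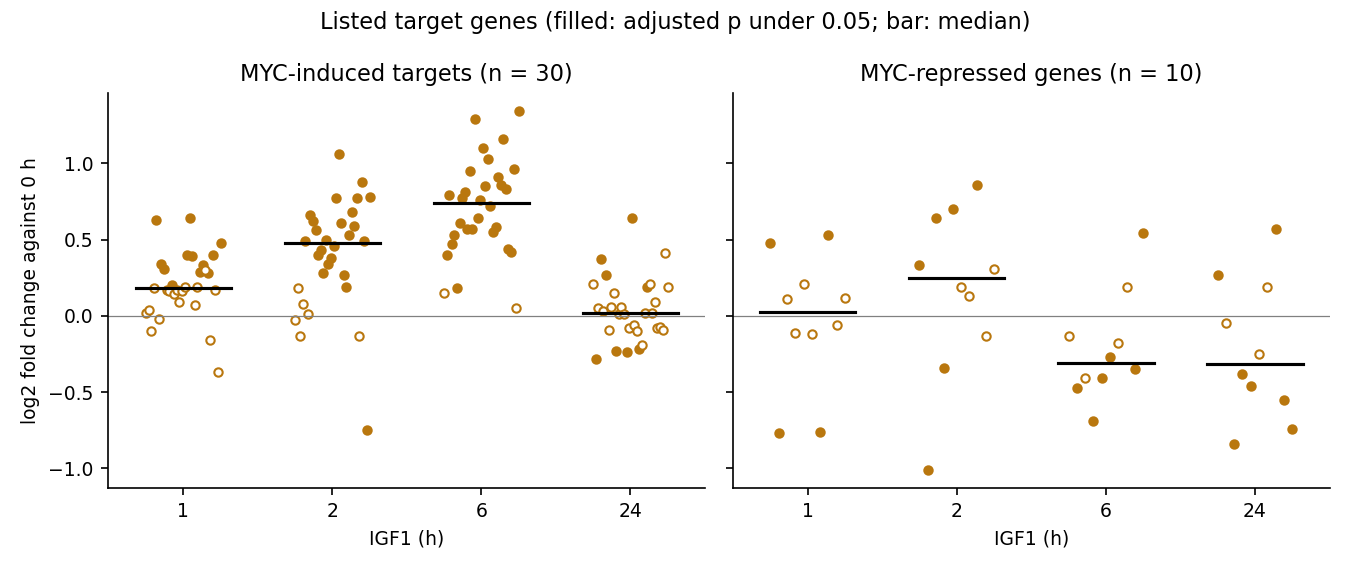
Log2 fold change against 0 h (vertical axis) of the 30 MYC-induced targets and the 10 MYC-repressed genes by hours of IGF1 (horizontal axis, times evenly spaced); each point is 1 gene, filled where the adjusted p is under 0.05, and the bar is the median. The induced targets have their highest median, 0.74, at 6 h and lie around 0.02 at 24 h, and the repressed genes are mixed.

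Genes known to be repressed by MYC did not move as a block. Of 10, all tested, 2 were higher and 2 lower at 1 h, 4 and 2 at 2 h, 1 and 5 at 6 h, and 2 and 5 at 24 h, with medians of 0.03, 0.25, −0.31 and −0.32. The share lower was 20% at 1 h and 2 h and 50% at 6 h and 24 h, against 3.88%, 17.5%, 19.6% and 13.2% of all genes. At 2 h it was thus near the background. The share higher was 20%, 40%, 10% and 20% at the 4 times in turn, against 6.75%, 20.2%, 20.6% and 12.7% of all genes. The cell cycle inhibitor Cdkn1b (p27) was lower from 1 h to 6 h, at 37.0 ± 1.75 CPM at 2 h against 74.6 ± 5.43 at 0 h (−1.01 ± 0.064, adjusted p = 1.40e-12). Cdkn1a (p21) was higher at 1 h (0.48 ± 0.056, adjusted p = 4.65e-07) and 2 h (0.33 ± 0.056). The growth arrest gene Gas1 was higher at 1 h, 2 h and 24 h, with its highest change at 2 h (0.86 ± 0.12, adjusted p = 1.38e-05). Cdkn2b (p15) was lower from 2 h on, most at 6 h (−0.69 ± 0.10, adjusted p = 4.62e-06), and Ndrg1 was lower at 6 h and 24 h (−0.35 and −0.55). Cebpa changed direction, from 0.70 at 2 h to −0.41 at 6 h, each called. The genes lower at 2 h were Cdkn1b and Cdkn2b, and leaving out 2 h replicates 1 and 2 gave 1 gene.

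Of the MAX and MLX partners that are no members, 3 of 4 were tested. Mlxip was called at no time, with changes of 0.06, −0.07, −0.15 and −0.26 at 1, 2, 6 and 24 h. Mlx, the hub of a parallel network of glucose-sensing factors that also pairs with Mxd1, Mxd4 and Mnt, rose at all 4 times, from 17.1 ± 2.00 CPM at 0 h to 28.1 ± 2.99 at 1 h and 30.3 ± 2.30 at 2 h (0.72 ± 0.091 and 0.82 ± 0.091, adjusted p = 1.84e-06 and 5.10e-08). Its changes at 6 h and 24 h were 0.75 ± 0.091 and 0.42 ± 0.092. Mxd3, the MXD gene known from proliferating cells in S phase, was scarce at first and higher at 24 h. It stood at 0.868 ± 0.235 CPM at 0 h and 3.76 ± 0.890 CPM at 24 h (2.10 ± 0.29, adjusted p = 3.27e-06).

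Among 15 coactivators and cofactors of MYC, 3 were higher and none lower at 1 h, 6 and none at 2 h, 5 and 1 at 6 h, and 1 and 1 at 24 h. The share higher was 20%, 40%, 33.3% and 6.67% at the 4 times in turn, against 6.75%, 20.2%, 20.6% and 12.7% of all genes. The share lower was 0%, 0%, 6.67% and 6.67%, against 3.88%, 17.5%, 19.6% and 13.2% of all genes. Both 24 h shares rest on 1 gene each. At 1 h the higher genes were the elongation kinase Cdk9 (0.41 ± 0.068), its cyclin Ccnt1 (0.41 ± 0.079) and Zbtb17 (0.39 ± 0.085). Zbtb17 encodes MIZ1, the factor through which MYC represses genes. At 6 h they were led by Ruvbl2, an ATPase of chromatin complexes that bind MYC, at 59.9 ± 2.71 CPM against 33.9 ± 2.38 (0.82 ± 0.074, adjusted p = 9.83e-10). Of 15 genes of the SIN3 and NCOR corepressors, none was called at 1 h by edgeR (5 had an unadjusted p under 0.05, and DESeq2 called 1), 7 were higher and 3 lower at 2 h, 4 and 3 at 6 h, and 2 and 1 at 24 h. The shares of 46.7% higher and 20% lower at 2 h stood against 20.2% and 17.5% of all genes, and those of 26.7% and 20% at 6 h against 20.6% and 19.6%. At 24 h 13.3% were higher and 6.67% lower, against 12.7% and 13.2% of all genes. At 1 h, where edgeR called none of the 15, 6.75% of all genes were higher and 3.88% lower. The scaffold Sin3a was lower at 2 h (−0.46 ± 0.080, adjusted p = 5.66e-05), with Arid4b (−0.57 ± 0.083) and Arid4a (−0.42 ± 0.090), while the deacetylases Hdac1 and Hdac2 were higher at 2 h (0.30 and 0.25) and 6 h (0.38 and 0.40).

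Of the other 9 genes of the MGA complex, 2 were higher at 1 h, 4 at 2 h and none lower at either time. Rybp, which stimulates the ubiquitin ligase activity of the complex, was at 13.8 ± 1.12 CPM at 1 h against 9.44 ± 1.01 (0.55 ± 0.12, adjusted p = 0.00176). At 6 h 2 were higher and 1 lower, led by Tfdp1 (0.71 ± 0.070, adjusted p = 5.00e-09), and at 24 h 1 was higher and 2 were lower. The share higher was 22.2% at 1 h and 44.4% at 2 h, against 6.75% and 20.2% of all genes, and at 6 h it was near the background (22.2% against 20.6%). The share lower was 0% at 1 h and 2 h and 11.1% at 6 h, against 3.88%, 17.5% and 19.6% of all genes. At 24 h 11.1% were higher and 22.2% lower, against 12.7% and 13.2% of all genes. Of 16 genes that act on the stability of MYC protein, 4 were higher after 1 h, 7 after 2 h, 5 after 6 h and 5 after 24 h, with 0, 1, 1 and 1 lower. The share higher was 25% after 1 h, 43.8% after 2 h and 31.2% after 6 h and after 24 h, against 6.75%, 20.2%, 20.6% and 12.7% of all genes. The share lower was 0% after 1 h and 6.25% at each later time, against 3.88%, 17.5%, 19.6% and 13.2% of all genes. The deubiquitinase Usp36, which stabilises MYC, was higher at 1 h, 2 h and 6 h (0.48, 0.56 and 0.62, each ± 0.087), and Set, an inhibitor of the phosphatase that acts on MYC, by 0.25, 0.43 and 0.54. Fbxw7, the ubiquitin ligase subunit that removes MYC, was also higher at 1 h (0.27 ± 0.086, adjusted p = 0.0392) but lower at 6 h (−0.26 ± 0.087, adjusted p = 0.0179). The largest changes of the list were at 24 h in genes that also serve mitosis, Plk1 at 19.2 ± 2.95 CPM against 2.75 ± 0.462 (2.80 ± 0.16, adjusted p = 1.94e-13), Aurka (2.44 ± 0.17) and Cip2a (1.73 ± 0.14).

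The authors' deposited table of edgeR results, which holds 12207 genes, lists the same 7 members and neither Mycn nor Mycl. For Myc at 2 h the authors' deposited table gives a log2 fold change of 0.43 with an FDR of 2.32e-05, and for Mnt at 2 h −1.55 with 6.53e-10. For the values near the threshold, the authors' deposited table gives Mxi1 at 1 h as −0.25 with an FDR of 0.051 and Mga at 2 h as −0.41 with 0.0582. Every call on the members that is given here lies on the same side of 0.05 there.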

How the data were processed

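Messenger RNA of 20 libraries, 4 at each of 0, 1, 2, 6 and 24 h of IGF1, was analysed from the raw counts that the authors deposited for each gene. FastQC, STAR, edgeR and mm10 are named, with no version, per the submitters' processing notes. How reads were counted, with which annotation and strand setting, is not given in the sources used here. A second table that the authors deposited holds log2 fold changes, average log2 CPM and p-values with FDR, per the file headers, and serves only the last paragraph of the report.

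Counts were fitted with edgeR 4.0.16 in R 4.3.3 (TMM scaling, filterByExpr, robust quasi-likelihood fit of all 20 libraries, no covariates). The filter kept 14420 genes with 99.91% of the counts. The SE is the size of the log2 fold change divided by the square root of F. TPM used exonic lengths from GENCODE M21, which 99.9% of genes had. Mycn and Mycl were tested with scipy 1.17.1. The fit was tested on simulated data. The members, the lists and the rule for named genes were chosen with earlier results of these data known. The rule takes the members, Pvt1, up to 4 called genes per list and time with the largest change, and the 3 genes most correlated with each member in log2 CPM (prior count 2). Other list genes are named where a count is small, after their values were seen. The description of 0 h replicate 2 in the labels repeats that of replicate 1. Their counts differed (chi-square of 9.28 per degree of freedom, where replicate pairs gave 2.99 to 57.4), so each was counted. Alternatives were RLE scaling, other count filters, DESeq2 1.42.0, a replicate block, fits of only the libraries compared, and left-out libraries.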

Additional observations from a re-analysis of the deposited data

Results flagged for a closer look

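In 3 of 35 groups of 4 libraries (7 members at 5 times) 1 library stood apart from the others, with its gap to the nearest library above Dixon's 95% critical value as a share of the group's range. Chance gives about 1 in 20 groups. Mxi1 in 0 h replicate 1 was at 25.4 CPM, where the nearest library had 27.7 (gap 0.913 of the range). Mga in 2 h replicate 4 was at 37.9 CPM, where the nearest had 83.1 (0.932), and Mga in 6 h replicate 4 was at 98.8 CPM, where the nearest had 88.0 (0.852).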

How the results depend on the processing

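The 49 log2 fold changes of the 7 tested members in 7 comparisons were recomputed under 28 alternatives, 20 of which left out a single library. Of 1372 values, 1343 kept their side of the threshold, 5 called values lost it, 24 gained it, and no called value turned its direction. A change of sign in 9 values concerned differences that were called neither way. Of the 29 called results, 24 kept call and direction under every alternative, among them all calls of Myc, all calls of Mxd4, and those of Mxd1, Mxi1 and Mnt against 0 h. The 5 that were lost are given in the report. Fits of only the 8 libraries compared called 2 members from 1 h to 2 h and 7 from 6 h to 24 h, where the fit of all libraries called 4 each, and 1 MYC-repressed gene lower at 2 h and 8 at 6 h in place of 2 and 5. The count at 2 h was also 1 with 2 h replicates 1 and 2 left out, and that at 6 h was 8 with 2 h replicates 2 and 4 left out, the latter chosen after seeing the data. The causes were not tested. Mxi1 at 1 h was called in 6 of 28 alternatives, and Mga at 2 h in 5 of 28, from −0.20 (adjusted p = 0.0111, without 2 h replicate 4) to −0.70 (adjusted p = 0.0141, without 2 h replicates 1 and 2). With all libraries and no count filter, Mga at 2 h was −0.42 (adjusted p = 1.16e-06). That fit also called Mga from 1 h to 2 h (−0.26, adjusted p = 0.0122) and from 2 h to 6 h (0.30, adjusted p = 0.0013). Of 35 levels per length, 4 moved by over 1 SD with TMM-scaled counts per kilobase. These were Max at 2 h and 24 h (89.0 and 86.1), Mxd4 at 24 h (114) and Mxi1 at 24 h (9.62). With the replicate number as a block, the counts of called members were the same as without it (3, 5, 6 and 3 at 1, 2, 6 and 24 h against 0 h, 4 in each step and 6 over the time course), and those of MYC-induced targets called higher were 11, 22, 28 and 4. The numbers pair no samples by the labels: 1 of 40 same-numbered pairs had a correlation of deviations over 0.1 (range −0.17 to 0.126), and 2 of 20 libraries were closest to one of their own number. Depth limits Mycn and Mycl, where 3 counts over the 24 h libraries are 0.0492 CPM.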
